A study of Rattus norvegicus with 12 samples.

Results

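The mRNAs of the NF-kappa-B subunits and of their inhibitors were followed in PC12 cells during the first 120 min of exposure to PACAP38. The members were every probe named in the array files for Nfkbia, Nfkbib, Nfkbie, Nfkbiz, Nfkb1, Nfkb2, Rela, Relb, Bcl3 or Tnfaip3, plus the probe A_44_P261444, which the files describe as NF-kappa-B inhibitor alpha under the transcript cluster TC581959. This gave 10 of 33212 gene names, read by 15 of 41012 probes. Of the genes, 5 had several probes, and a gene's value was taken from its brightest one.

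PC12 is a rat line from a tumour of the adrenal medulla that stops dividing and grows neurites when given nerve growth factor or PACAP, and PACAP38 is the longer form of the peptide that acts on the PAC1 receptor, Adcyap1r1. Cells received PACAP38 at 1e-07 M or none (control), and RNA was taken at 6 times, 5, 10 and 15 min (early) and 30, 60 and 120 min (late). RNA of each group at each time was pooled (n = 6) before labelling, and the PACAP38 pool and the control pool of a time were hybridised together to 2 Agilent whole rat genome arrays with the dyes exchanged. The 12 arrays therefore hold 1 pair of pools per time point, so that no single time point carries a test of PACAP38 against control, and the 2 ratios printed for it show the error of labelling and hybridisation, not that between cultures.

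NF-kappa-B is a family of dimers built from Rela, Relb, Rel and the products of Nfkb1 and Nfkb2. In resting cells the dimers are held in the cytoplasm by inhibitor proteins, among them the products of Nfkbia, Nfkbib and Nfkbie, and a stimulus that activates the inhibitor kinase has the inhibitor degraded and the dimer enter the nucleus. Several members are themselves targets of the dimers, Nfkbia and Tnfaip3 being the classical negative feedback genes, and mRNA levels say nothing of where the proteins are.

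Sequences upstream of the start were read for 9 of the 10 members from RefSeq's rat table on GRCr8, and letters matching the kappa-B motif were looked for on both strands of the 250 bases before the start. They were present in 7 of 9 members and in 22.5% of all 33469 starts in the table. The cAMP response element TGACGTCA was in 0 of 9 members against 1.59% of all starts, its shorter form TGACG, which the longer element contains, in 4 of 9 against 18.2%, and the AP-1 motif TGANTCA in 3 of 9 against 6.34%. The serum response element was in 0 of 9 against 1.5%. These counts describe letters in 1 window and not bound sites. The windows of 3 members are shown 5′ to 3′ on the strand of the gene, ending at the base before the start, with kappa-B letters in capitals: Nfkbia and Nfkb1 because they are the members counted as changed below, and Rela because its ratio stayed near 1. The first lies at chr6:78597073-78597322 and the second at chr2:226805463-226805712, both on the minus strand, and the third at chr1:212354086-212354335 on the plus strand.
Nfkbia: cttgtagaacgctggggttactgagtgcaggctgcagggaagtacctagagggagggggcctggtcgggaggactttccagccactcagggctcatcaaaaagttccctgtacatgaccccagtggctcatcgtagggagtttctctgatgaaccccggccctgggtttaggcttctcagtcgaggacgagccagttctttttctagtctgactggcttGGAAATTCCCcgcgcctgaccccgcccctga
Nfkb1: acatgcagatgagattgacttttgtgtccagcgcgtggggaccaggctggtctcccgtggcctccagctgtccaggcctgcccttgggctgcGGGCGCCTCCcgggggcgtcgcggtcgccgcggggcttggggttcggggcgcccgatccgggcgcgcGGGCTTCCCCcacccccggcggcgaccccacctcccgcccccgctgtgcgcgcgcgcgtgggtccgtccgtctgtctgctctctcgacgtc
Rela: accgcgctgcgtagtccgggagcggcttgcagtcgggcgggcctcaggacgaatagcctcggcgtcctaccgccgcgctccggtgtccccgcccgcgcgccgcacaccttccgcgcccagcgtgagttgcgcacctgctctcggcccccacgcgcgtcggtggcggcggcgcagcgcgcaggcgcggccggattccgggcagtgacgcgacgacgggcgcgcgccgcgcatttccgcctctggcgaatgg
The single match before Nfkbia lay 31 to 22 bases from the start and fitted the motif on either strand, the 2 matches before Nfkb1 lay 158 to 149 and 91 to 82 bases from it, and the Rela window held none. Kappa-B letters were also present before Nfkbie, Nfkbiz, Nfkb2, Bcl3 and Tnfaip3, none of which was counted as changed. The 3 windows therefore do not set changed against unchanged members. Bases G and C made up 57.2% to 76.4% of the member windows, and the share over all starts was not matched for this.

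Each array carried 45018 spots, 1639 of them controls, and 197 to 267 spots per array were left out as outliers. Between 38.4% and 49.6% of spots were well above background in a channel, and no spot was saturated. Each of the 3 slides held 2 neighbouring time points (5 and 10, 15 and 30, 60 and 120 min), so slide and time cannot be told apart, whereas both RNAs of a ratio were always on the same array. The control RNA was well above background on all 12 arrays for 11 of 12 PC12 marker genes with a probe, the receptor gene Adcyap1r1 included. Of 6 macrophage and leukocyte genes it was so on all 12 for Cd68, on some for Csf1r and on none for Ptprc, Aif1, Cd14 and Itgam. Of 5 fibroblast genes it was so on all 12 for Col1a1 and Pdgfra, on some for Col1a2 and Dcn and on none for Col3a1, and of 3 hepatocyte genes on none.

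A probe was counted higher or lower at a time point when its ratio of PACAP38 over control was at least 2 or at most 0.5 and the software's p-value for the spot was below 0.01, on both arrays, with at least 1 of the RNAs well above background on both. Of the 15 member probes, 9 or 10 could be counted at each time. No member was counted at 5 or 10 min, when 0% of all tested probes were higher at 5 min, 0% lower at 5 min, 0.167% higher at 10 min and 0% lower at 10 min. At 15 min 1 of 9 member probes was counted lower against 0.0667% of all probes, and 0 were higher against 0.224%. At 30 min 1 of 10 was lower against 0.255% and 0 were higher against 0.62%, and at 60 min 2 of 10 were lower against 0.84% and 0 were higher against 1.93%. At 120 min 2 of 9 were higher against 4.51% and 0 were lower against 3.58%. All lower counts belonged to the 2 Nfkbia probes and both higher counts to the 2 Nfkb1 probes, so these 6 counts come from 2 genes as the files describe the probes. The lower counts of 15 and 30 min and 1 of the 2 at 60 min were of A_44_P261444, a member by its description alone. Members were chosen with earlier results of these data known, so the shares stand beside the counts and do not test the members.

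**Figure D1:**
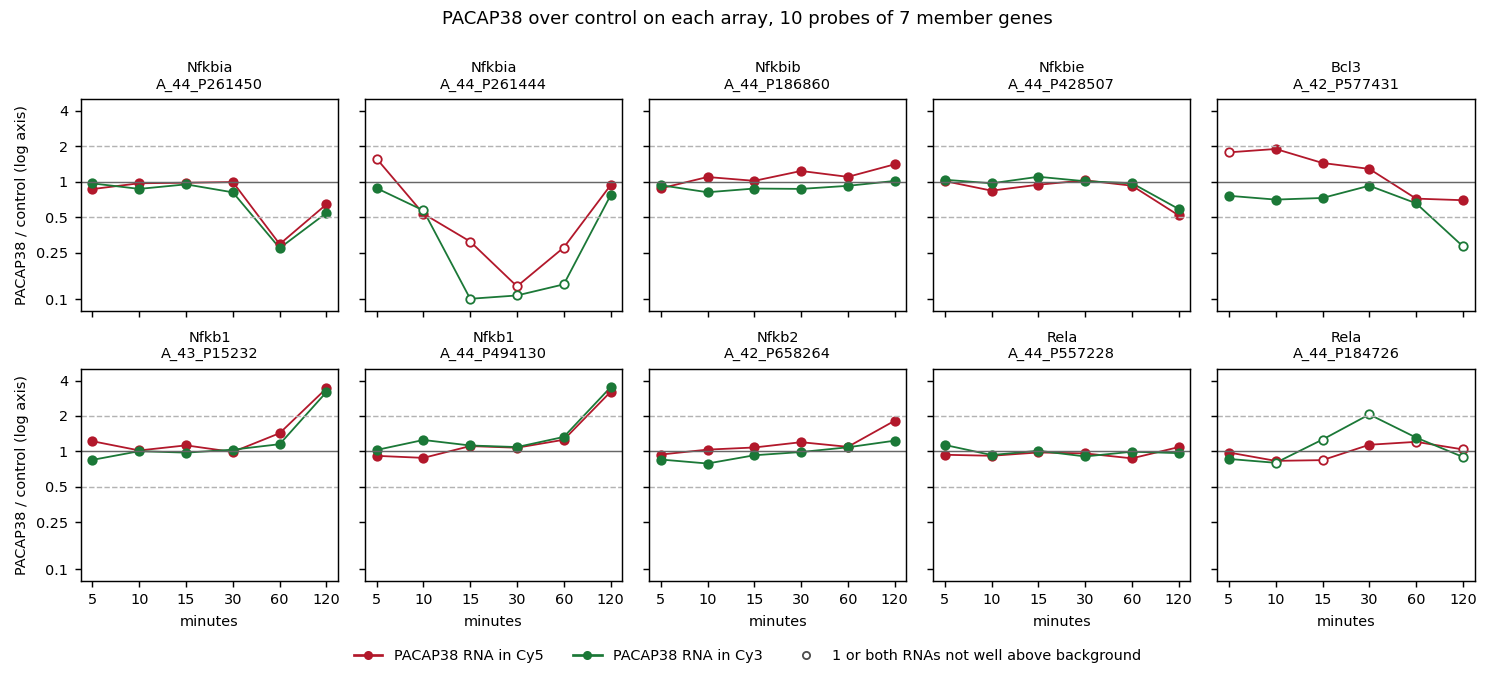
PACAP38 over control (y axis, log scale; 1 is no difference, dashed lines mark 2 and 0.5) against minutes of exposure for the 10 member probes with at least 1 countable time point; each line is 1 dye orientation, and open symbols mark arrays on which 1 or both RNAs were not well above background, where the ratio is not a measured fold. Only the Nfkbia panels drop past 0.5 on both arrays, and only the Nfkb1 panels pass 2 on both, at 120 min.

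Nfkbia, which encodes the inhibitor that binds and retains Rela dimers, was the member counted lower. Its brightest probe, A_44_P261450 (rn4 chr6:75730438-75730497, minus strand), was well above background in both RNAs on all 12 arrays. From 5 to 30 min its ratio lay between 0.811 and 0.991 on the 8 arrays, with a median of 0.957. At 60 min the processed signal of the PACAP38 RNA was 388.1 with PACAP38 in Cy5 and 376.6 with it in Cy3, against 1317 and 1381 for the control. The ratios were 0.295 and 0.273, with spot p-values of 1.44e-11 and 2.48e-12, which is 0.283 as a mean and 3.53-fold lower. At 120 min the PACAP38 signals were 1226 and 962.8 against 1910 and 1776 in the control. The ratios of 0.642 and 0.542 were both below 1, with spot p-values of 0.00264 and 5.93e-05, but did not reach 0.5. The 2 RNAs were thus apart on all 4 arrays of 60 and 120 min, and the PACAP38 signal of 60 min was the lowest of the 6 times while the control signals of 60 min lay within the range of the other control signals. After scaling between arrays the control level was also lowest at 60 min, at 1171 against 1260 to 1590 at the other times, and the PACAP38 level was 332 there. In RNA of whole cultures, less of an mRNA in each cell and fewer cells that hold it cannot be told apart.

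The other probe, A_44_P261444, is assigned to Nfkbia by its description alone. Its transcript cluster has no symbol in RefSeq's table, and which RNA it reads was not tested. The files place it 162 bases further along the same strand (rn4 chr6:75730216-75730275), and it gave a different course, counted lower at 15, 30 and 60 min in the processed signals and past 0.5 at no time with normexp. It was dim: its control signals ran from 43.8 to 114.1 and were well above background on 11 of 12 arrays. At 5 min its ratios were 1.57 and 0.879, on either side of 1, with the control RNA not well above background on the first array. At 10 min they were 0.534 and 0.569, with spot p-values of 0.011 and 0.0295 and the PACAP38 RNA not well above background on the second array. At 15 min the PACAP38 signals were 20.03 and 7.61 against control signals of 64.6 and 75.1, at 30 min 9.1 and 9.35 against 70.4 and 86.5, and at 60 min 15.96 and 11.2 against 57.9 and 83.6. The PACAP38 RNA was well above background on none of these 6 arrays, so only a bound can be given: with the dim RNA set to no less than the lowest level that was well above background, the mean PACAP38 level over both arrays was lower by at least 3.4-fold after 15 min, where the array with PACAP38 in Cy5 read 0.31 by itself and the other 0.101, at least 3.01-fold after 30 min and at least 3.35-fold after 60 min. At 120 min both RNAs were well above background again and the ratios were 0.932 and 0.764.

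The 2 Nfkbia probes therefore both read lower at 60 min and differed at the times around it. On the same arrays of 30 min the brighter probe read 0.991 and 0.811 while the dimmer one was at least 3.01-fold lower, and at 120 min the brighter probe was the lower of the pair. The brighter probe stayed below 0.5 at 60 min when background was corrected with normexp and loess (0.392). The same correction adds an offset of 50 to the background-corrected signals. It brought the dimmer probe to 0.828 after 15 min, 0.833 after 30 min and 0.834 after 60 min. The dimmer probe's counts thus rest on the processed signals of the files.

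**Figure D2:**
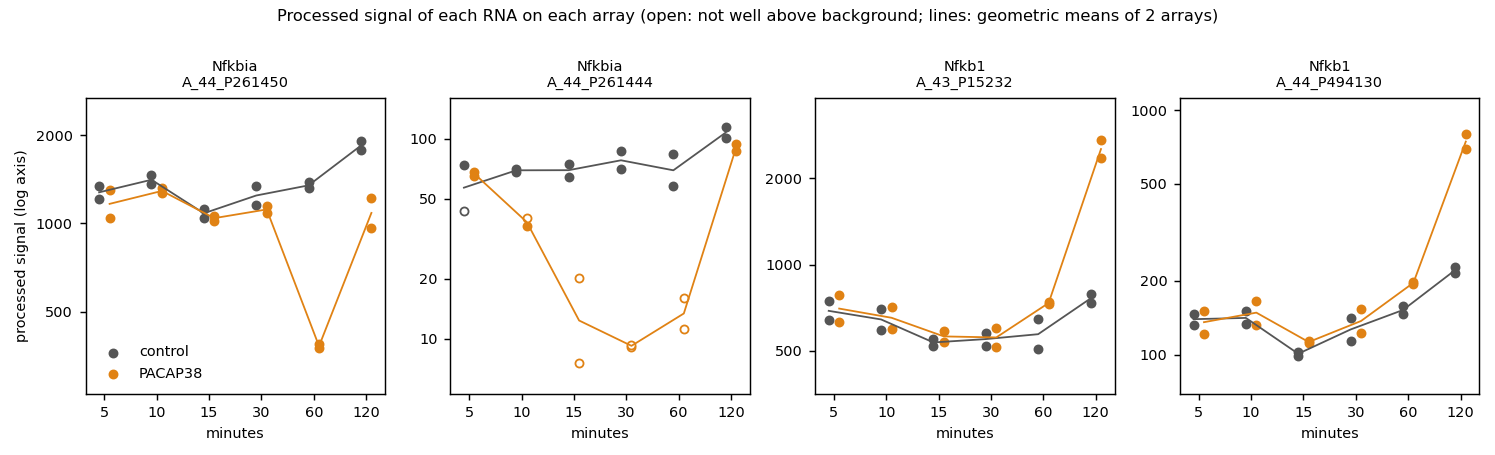
Processed signal (y axis, log scale, a separate range in each panel) of the control and PACAP38 RNA on each of 12 arrays against minutes, for both Nfkbia and both Nfkb1 probes; points are arrays, open where not well above background, and lines join the geometric means of 2 arrays. In the first panel PACAP38 drops to 376.6 and 388.1 at 60 min, in the second to between 7.61 and 20.03 from 15 to 60 min, and in the Nfkb1 panels the PACAP38 RNA parts upwards from the control at 120 min.

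Nfkbie, encoding inhibitor epsilon, was near 1 until the last time point. Its ratio lay between 0.838 and 1.1 on the 8 arrays from 5 to 30 min and was 0.923 and 0.969 at 60 min. At 120 min the PACAP38 signals of 183 and 199.7 stood below the control signals of 354.7 and 341.4. The ratios were 0.516 and 0.585, with spot p-values of 4.02e-05 and 0.000647, short of the limit of 0.5 on both arrays. A limit of 1.5-fold would count it, together with the brighter Nfkbia probe. With normexp and loess its mean ratio was 0.783 against 0.549 in the processed signals.

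Nfkbib, the inhibitor beta, had ratios between 0.812 and 1.4 over the 12 arrays and was above 1 on both arrays only at 120 min, at 1.4 and 1.01. Its signals were well above background in both RNAs throughout, with a control range from 613.5 to 960.9. Bcl3, an inhibitor-like protein that works in the nucleus with p50 and p52 dimers, was dim, with control signals between 31.9 and 87.5. From 5 to 30 min its ratio was above 1 on all 4 arrays with PACAP38 in Cy5, from 1.28 to 1.89, and below 1 on all 4 with it in Cy3, from 0.704 to 0.923, so the 2 dyes disagreed. At 60 min the ratios were 0.717 and 0.655, and at 120 min 0.695 and 0.282, below 1 on all 4 arrays. Only the array with PACAP38 in Cy3 at 120 min passed the limits, and the PACAP38 RNA was not well above background there. With normexp and loess the mean ratio of 120 min was 0.887.

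Nfkb1, whose product p105 is processed to the DNA-binding p50, was the single one of the 10 members counted higher. Its brightest probe, A_43_P15232 (rn4 chr2:233091120-233091179, minus strand), was printed on 10 spots of each array, of which at least 8 were usable. Its ratio lay between 0.849 and 1.22 from 5 to 30 min and was 1.43 and 1.15 at 60 min. At 120 min the PACAP38 signals were 2712 and 2348 against control signals of 789.7 and 734.9. The ratios were 3.43 and 3.19, with a mean of 3.31 and spot p-values of 1.39e-11 and 6.95e-11. The second probe, A_44_P494130 (rn4 chr2:233091704-233091763), had 1 spot, and its course was close to that of the first. It read 1.26 and 1.33 at 60 min and 3.21 and 3.51 at 120 min, with a mean of 3.35, and the 2 probes' mean ratios differed by no more than 1.07-fold at each time. A further probe that the files describe as the p105 subunit, A_44_P273061, is not named Nfkb1 there and is no member, and it was well above background in neither RNA on any array. Both RNAs were well above background on all 12 arrays for both member probes. With normexp and loess the means of 120 min were 2.52 and 1.9, the latter short of 2.

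The other subunits among the members, Nfkb2, Rela and Relb, were not counted. Nfkb2, whose p100 product yields p52, read 0.79 to 1.2 on the 8 arrays from 5 to 30 min and 1.82 and 1.23 at 120 min, above 1 on both arrays. Its second probe was well above background in neither RNA on any array. Rela, the transactivating p65 subunit, had the narrowest range of the measured members: its bright probe read between 0.874 and 1.14 over the 12 arrays, with a median of 0.965. Its dim second probe read 2.06 and 1.14 at 30 min, with the control RNA not well above background on the array of the higher ratio. Relb, the partner of p52, was well above background in the control RNA on 1 of 12 arrays and in the PACAP38 RNA on none, so no fold is given for it.

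The feedback gene Tnfaip3, which encodes the ubiquitin-editing protein A20, was well above background in neither RNA on any array, and its probe has no mapped position in the files. Nfkbiz, an inducible nuclear inhibitor, was above background in no control RNA. Its brighter probe was well above background in the PACAP38 RNA on 1 array at 60 min and 1 at 120 min, so it could be counted at neither time and no fold is given. Its other probe was so on none. For these genes a low level cannot be told apart from a probe that reads poorly.

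In untreated cells the members that were measured on all arrays changed little over the 6 control pools. After the channels were scaled to a common distribution across arrays, the control level ranged 1.51-fold for the brightest Nfkb1 probe, 1.36-fold for the brightest Nfkbia probe, 1.35-fold for Nfkbie, 1.34-fold for Rela and 1.28-fold for Nfkbib and for Nfkb2. The PACAP38 level ranged 4.39-fold for that Nfkbia probe, with its lowest at 60 min, 2.89-fold for Nfkb1, with its highest at 120 min, 2.22-fold for Nfkbie, with its lowest at 120 min, and 1.33-fold for Rela. The ranges of the first 3 were thus wider in the PACAP38 RNA, and that of Rela was not.

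Time points give the only spread between independent pools, and the members were therefore also read from limma fits across all 18720 testable probes, with Benjamini-Hochberg adjustment over all of them. In these fits a change of the ratio with time that the fit leaves out adds to the error too. Such a change and the spread between pools cannot be told apart in the SE. In the mean ratio over 30, 60 and 120 min against 0, 0 of 10 member probes passed an adjusted p of 0.05, while 0.94% of all probes passed as higher and 0.304% as lower. Unadjusted p-values were below 0.05 for 4 of 10 member probes against 23.9% of all. The brightest Nfkbia probe had a mean log2 ratio of -0.91 ± 0.29 (SE, 3 time points, adjusted p = 0.162 in limma) and was lower at all 3 times. Its dim probe is in these counts, but no value is given for it, since its ratios at 30 and 60 min are not measured folds. The 2 Nfkb1 probes had 0.7 ± 0.31 and 0.74 ± 0.3 (adjusted p = 0.224 and 0.205 in limma), and Nfkb2 had 0.28 ± 0.11 (adjusted p = 0.197 in limma). Over the 10 member probes the median was 0.02, against -0.03 over all probes.

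In the slope of the log2 ratio on log2 time, 0 of 10 member probes passed, while 0.924% of all probes passed as rising and 0.379% as falling. Unadjusted p-values were below 0.05 for 5 of 10 against 30.8% of all. The steepest of these were Bcl3, at -0.29 ± 0.06 log2 units for each 2-fold step in time (adjusted p = 0.0703 in limma), and the 2 Nfkb1 probes, at 0.31 ± 0.1 and 0.32 ± 0.1 (adjusted p = 0.117 and 0.102 in limma). Nfkb2 had 0.15 ± 0.03 (adjusted p = 0.0725 in limma) and Rela 0.00 ± 0.03 (adjusted p = 0.952 in limma). Which probes passed in the slope depended on the time scale and on slide, as given further below. The late mean minus the mean of 5, 10 and 15 min passed for 0% of all probes and for 0 of 10 members, with 1 member and 14% of all probes below an unadjusted 0.05.

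The probes most like the members were found by the mean absolute difference of log2 ratios over the 12 arrays, among 14750 probes with both RNAs well above background at the 3 late times. The brightest Nfkbia probe was closest to LOC680200, annotated as similar to a zinc finger protein, at 0.14, then to Zfp84 at 0.18 and Zfp111 at 0.18. Their mean ratios were 0.303, 0.291 and 0.268 at 60 min and 0.603, 0.481 and 0.577 at 120 min. The first Nfkb1 probe was closest to AW532136 at 0.11, Smim14 and Ehd4 at 0.14, which read 3.08, 2.87 and 3.18 at 120 min. The second was closest to Txnrd1 at 0.08, Mon2 at 0.12 and Egfr, the epidermal growth factor receptor, at 0.12, which read 3.32, 3.15 and 3.42 at 120 min. No like probes are named for the dim Nfkbia probe, since on 8 of the 12 arrays 1 or both of its RNAs were not well above background.

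Around the members, 84 genes of the pathway were on the array, in 5 lists: other NF-kappa-B proteins, kinases and adaptors, brakes, receptors and target genes. Each gene was read by its brightest probe alone, and other probes of these genes are not given. The counts are thus of genes, while the shares beside them are of probes. Of these, 49 could be counted at 1 or more times, and 7 were counted higher and 5 lower at some time. At 15 and at 30 min 1 gene was higher, at 60 min 3 of 47 were higher and 0 lower, and at 120 min 6 of 46 were higher and 5 lower, beside the shares of all probes given above. Among the other NF-kappa-B proteins Rel, the c-Rel subunit, had ratios of 1.94 and 2.26 at 60 min and 3.47 and 3.95 at 120 min, with both RNAs well above background, and Nfkbil1, which resembles the inhibitors, read 2.45 and 2.29 at 120 min. With normexp and loess Rel at 120 min was 1.81 and Nfkbil1 1.95, both short of 2. Nfkbid, an inducible nuclear inhibitor, read 22.1 and 3.77 at 60 min, with its control RNA well above background on 1 of the 2 arrays, and with normexp and loess its mean ratio was 1.37, no longer past 2. Nkiras1, a Ras-like protein that binds the inhibitors, was at least 1.98-fold lower at 120 min, its PACAP38 RNA being well above background on neither array.

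Of 21 countable kinase and adaptor genes, 4 were lower at 120 min and 0 were higher, beside 3.58% lower and 4.51% higher of all tested probes. These were Traf5, an adaptor of tumour necrosis factor receptors, at 0.104 and 0.127, Tab1, which binds the kinase TAK1, at 0.381 and 0.327, Traf1 at 0.439 and 0.375, and the scaffold gene Card10 at 0.484 and 0.432. With normexp and loess Traf5 was 0.469 and Traf1 0.746, the latter no longer past 0.5. The median log2 ratio over the 21 was -0.27, against -0.03 over all tested probes. The inhibitor kinase genes were not among them: Ikbkb read 1.06 and 0.83 at 120 min and Chuk 0.997 and 1.25. None of 6 countable brakes was counted, and their median was -0.21.

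Target genes were mostly undetected, 9 of 32 being countable at any time. Gadd45b, a stress-induced gene of the growth arrest family, was counted higher from 15 min on, when it read 2.35 and 2.81. Its ratios were 5.66 and 6.23 after 30 min, 6.16 and 5.74 after 60 min, then 4.05 and 3.3 after 120 min. Ier3, an immediate early gene, read 2.28 and 2.21 at 60 min and 7.34 and 7.19 at 120 min. Il6, the cytokine interleukin 6, read 3.21 with PACAP38 in Cy5 and 33.6 with it in Cy3 at 120 min, with the control RNA well above background on neither array, which puts the mean over both arrays at least 5.41-fold higher in the processed signals. With normexp and loess its mean ratio was 1.5, no longer past 2. The ratios of its dim probe differed by dye at every time, being 0.234 and 4.58 at 5 min. Of the receptors, 1 of 4 was counted, Tnfrsf12a, at 3.83 and 4.48 at 120 min.

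**Figure D3:**
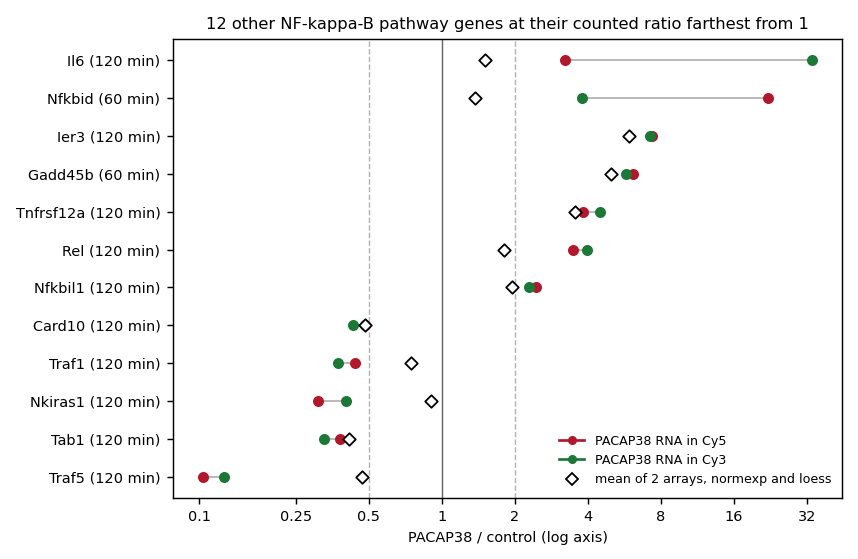
PACAP38 over control (x axis, log scale) for the 12 pathway genes that were counted at any time, each at the time, given in parentheses, at which it was counted with its mean ratio farthest from 1; circles are the 2 dye orientations and diamonds the mean with normexp and loess. Of these genes, 7 lie above 2 and 5 below 0.5 on both arrays, and the diamonds of 6 genes, Il6, Nfkbid, Rel, Nfkbil1, Traf1 and Nkiras1, lie between 0.5 and 2.

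The size of the counted ratios depended on how background was corrected and how the dyes were normalised. For the 2 brightest counted probes, normexp with loess moved Nfkbia at 60 min from 0.283 to 0.392 and the brightest Nfkb1 probe at 120 min from 3.31 to 2.52, and both stayed past 0.5 or 2 on both arrays. Normexp with median centring has the same background correction and differs from the loess setting in the dye normalisation. With it each was past the limit on 1 array only. Nfkbia read 0.528 and 0.294 on the 2 arrays of 60 min and Nfkb1 2.8 and 1.69 on those of 120 min, in the same direction.

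**Figure D4:**
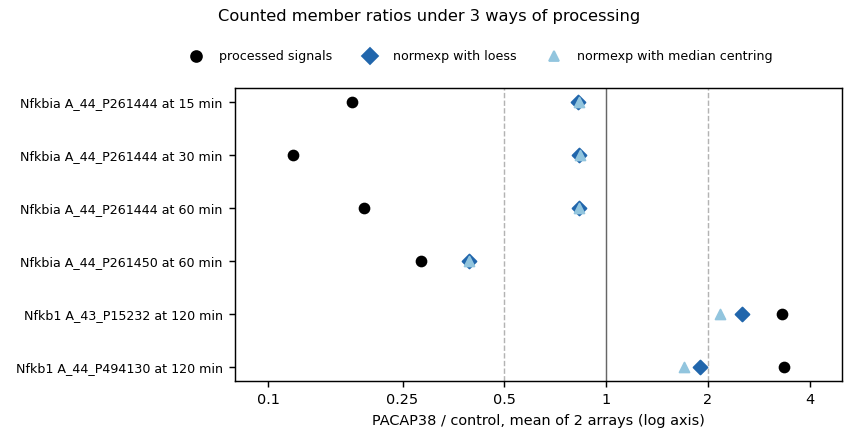
Mean ratio of PACAP38 over control (x axis, log scale) for the 6 counted combinations of member probe and time, from the processed signals, from normexp with loess and from normexp with median centring. All 3 lie on the same side of 1 for each, the dim Nfkbia probe moves to between 0.828 and 0.837, and the mean ratios of the brightest probes of Nfkbia and Nfkb1 stay past 0.5 and 2.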

How the data were processed

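Two-colour Agilent whole rat genome arrays (44K format, 4 arrays to a slide) were read with Agilent Feature Extraction, version 11.0.1.1 per the labels and 12.0.3.1 per the file headers. The authors deposited scanner files, whose processed intensity values are background-subtracted and dye-normalised, with a p-value for each spot's log ratio, and a table of log10 ratios equal to those of the processed intensities. Groups were taken from the sample labels, each array holding the PACAP38 and control pools of 1 time point.

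Log2 ratios of PACAP38 over control were computed from the deposited processed intensities, turned by dye, without control and outlier spots, and averaged over spots of a probe (the median for spot p-values) and then over both dye orientations, which are 1 replicate. The 6 time points were fitted with limma 3.58.1 in R 4.3.3 across 18720 probes for which 1 RNA was well above background on both arrays at 1 time or more, and the scripts were checked on simulated data. Channel levels were scaled between arrays with limma's Aquantile. Where neither array had an RNA well above background, its fold is a bound, the bright RNA's mean level over the dim RNA's, each array's dim level being raised to the lowest well-above-background level of its channel. The p-values measure the spread between single pools of different time points, which includes any change of the ratio with time that the fit leaves out. Precision is limited by the number of arrays and pools.

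Members and pathway lists were chosen with earlier results of these data known. Named genes were the members, pathway genes counted at any time (at most 12) and the 3 gene names most like each counted member probe, left out for the dim Nfkbia probe. Alternatives were background correction with normexp (offset 50) with loess or median centring, the deposited table, single dye orientations, a 1.5-fold limit, no p-value limit, other filters, left-out time points, time in minutes and slide as a block. Gene names are those of the array files, and RefSeq's table gave the same symbol for the 10 of 15 member probes whose transcript it lists. Probe positions are on rn4 and upstream sequences on GRCr8. The culture vessel differs between the labels' treatment text and the design text.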

Additional observations from a re-analysis of the deposited data

How the results depend on the processing

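The deposited table gave the same ratios as the processed signals. With normexp and loess 18 of 58 member ratios moved by more than 1 SD of the log2 ratios of the 2 dye orientations, and with median centring 32 of 58, all 6 counted ones included and in their direction. At 15, 30 and 60 min the dim Nfkbia probe read 0.828, 0.833 and 0.834 with loess and 0.831, 0.837 and 0.829 with median centring. The brightest Nfkbia probe at 60 min read 0.392 and 0.394, and 0.234 as the mean with the dim probe. At 120 min the Nfkb1 probes read 2.52 and 1.9 with loess and 2.17 and 1.7 with median centring. Dim signals are where the offset of 50 weighs most.

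The member counts changed accordingly. Lower counts at 15 and 30 min became 0 with either normexp setting. At 60 min they became 1 with loess, the brightest Nfkbia probe, and 0 with median centring. Higher counts at 120 min became 1 with loess, the brightest Nfkb1 probe, and 0 with median centring. Lower counts at 120 min became 2 at a 1.5-fold limit, namely Nfkbia and Nfkbie, and ranged from 0 to 1 with 1 dye orientation, the 1 being Bcl3. Removing the spot p-value limit or the filter on dim probes changed no member count by over 1.5 times.

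Counts of pathway genes at a 1.5-fold limit were 1 higher at 10 min, 2 higher at 30 min, 8 higher and 2 lower at 60 min, and 8 lower at 120 min. With median centring they were 1 higher at 60 min, and 2 higher and 2 lower at 120 min, and with loess 3 higher and 2 lower at 120 min. With single dye orientations the lower counts ranged from 0 to 2 at 5 min, 0 to 1 at 30 min and 0 to 1 at 60 min, and the higher counts from 0 to 1 at 10 min, 1 to 2 at 15 min, 1 to 2 at 30 min and 5 to 7 at 60 min.

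The counts of the limma fits depended on the setting. For the late mean, 233 probes passed in all, 34 with loess, 0 with median centring, 52 without the filter, 835 with slide as a random block, and between 0 (without 60 min) and 1776 (without 30 min) with a time point or dye orientation left out, or 1 without 120 min. Without 30 min 2 member probes passed, Nfkbia A_44_P261450 and Bcl3, and 0 in the other left-out settings. For the slope, 244 passed in all, 107 with loess, 1 with median centring, 0 without the filter, 438 with the filter at 3 or more time points, 5616 with time in minutes, 0 with slide as a block, and between 0 (without 10, 15 or 120 min) and 415 (without 5 min) with one left out. With time in minutes 6 of 10 member probes passed, beside 2214 rising and 3402 falling of all 18720 probes. The 6 were both Nfkb1 probes, Nfkb2 and Nfkbib as rising and Nfkbie and Bcl3 as falling. The late mean minus the early mean passed for 1 probe with the filter at 3 or more time points, 2 with slide as a random block, and between 0 and 554 with one left out, the highest without 30 min, and for 0 member probes in each. The cause was not tested.

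Directions reversed for values that had not passed. The late mean of Nfkbib was -0.005045 with median centring and ranged from -0.102 to 0.31 with one left out. The slope of Nfkbib was -0.0136 with median centring. The slope of the dim Nfkbia probe, which rests on ratios that are not measured folds at 15, 30 and 60 min, ranged from -0.81 to 0.21 with one left out, and was 0.0045 per min and 0.15 with slide as a block, that of the brightest Nfkbia probe 0.32 with slide as a block. The slope of Rela ranged from -0.0339 to 0.0266 with one left out and was 0.00041 per min. Each ratio already compares the PACAP38 and control pools of a time within an array, and the fits used these ratios. Beyond that, no paired analysis was possible because the 2 arrays of a time hold the same pair of pools.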

Other observations

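Outside the members and lists, 5 further probes are described in the array files with NF-kappa-B, of which 2 could be counted at some time and none was counted. One of the other 3, A_44_P273061, is described as the Nfkb1 product p105. Tank, the TRAF-associated activator of NF-kappa-B, read 0.849 and 0.864 at 60 min and 0.502 and 0.647 at 120 min. Nfrkb, named for binding related to kappa-B, read 0.918 and 0.668 at 60 min and 0.878 and 0.628 at 120 min, below 1 on all 4 arrays. These probes were chosen by a text search after the members' values were seen.

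Of the brakes, Tnip2, which binds A20, read 0.427 and 0.509 at 120 min, short of the limit on 1 array. Zc3h12a, the RNase regnase-1, was above background in the PACAP38 RNA on 1 array at 60 min and 1 at 120 min and in no control RNA. It could be counted at neither time. Birc2, an apoptosis inhibitor on the list of target genes, read 1.89 and 2.18 at 60 min and 1.86 and 2.73 at 120 min, above 1 on all 4 arrays and short of the limit on 1 array at each time. These 3 genes were chosen after their values were seen.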
